A study of Danio rerio with 18 samples.

Results

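The 6 arrays described here measured the GFP-negative cells of 2 wild-type zebrafish reporter lines, the cells left in the embryo once the fluorescent cells had been sorted away. They are 6 of the 18 arrays of the study, chosen by their labels alone: 3 of the miR-206 reporter line, whose GFP-positive cells are muscle, and 3 of the miR-124 reporter line, whose GFP-positive cells belong to the central nervous system (CNS). Embryos of both lines were wild type, had 14 to 16 somites and were kept at 28 °C. Live sorting by fluorescence gave the fractions, and the labels call the 3 arrays of each group biological replicates. The 2 fractions are called the miR-206 rest and the miR-124 rest below. Of the other 12 arrays, the 6 of sorted wild-type muscle and sorted wild-type CNS cells and the 6 of embryos mutant for Dicer, sorted by the same miR-124 reporter, serve for comparison. The sources used here do not give what drives GFP in the reporters, how many embryos or cells entered a sort or where the gates were set.

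A microRNA reporter marks cells by the small regulatory RNA they make. MiR-206 is a microRNA of skeletal muscle, and miR-124 is one of the most abundant microRNAs of the nervous system. At this age the somites along the trunk are turning into the first slow and fast muscle fibres while new somites still bud off the presomitic mesoderm, and the neural tube has been divided into forebrain, eye, midbrain, hindbrain and spinal cord. The miR-206 rest should therefore hold the neural tube but little muscle, and the miR-124 rest the muscle but less of the neural tube. All other tissues (skin, blood, vessels, heart, notochord, kidney, tail bud) should be in both. The comparison asks how far these whole-embryo remainders differ, and in which genes.

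Values are Affymetrix MAS5 intensities, 1 per probe set, and a difference is the log2(intensity + 16) of the miR-206 rest minus that of the miR-124 rest, so that a negative value means a lower level in the rest without muscle. The added 16 shrinks the differences of dim genes. Array medians in the 2 rests lay between 36.5 and 45.2, with replicate 1 of the miR-206 rest the lowest. Across probe sets, log2 values correlated at 0.974 to 0.987 between arrays of the miR-206 rest, at 0.971 to 0.983 between those of the miR-124 rest and at 0.958 to 0.981 between the 2 rests. Of 15502 probe sets that are not controls 10795 had 1 gene symbol, and of these 7987 passed the filter on low values. Taking the brightest probe set of each, they gave 6831 genes, which were tested together with 2717 probe sets that have no single gene name.

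Of these 9548 features, 585 (6.13%) passed limma's two-sided test at an adjusted p under 0.05 (Benjamini-Hochberg over all 9548) and are said to be called, 213 (2.23%) higher and 372 (3.9%) lower in the miR-206 rest. Genes with a symbol made up 414 of them, 170 higher and 244 lower. The falls were the larger changes: 132 of the 372 reached 2-fold and 34 reached 4-fold, whereas 43 of the 213 rises reached 2-fold and 0 reached 4-fold. The median difference over all features was -0.02 and the median standard error (SE) 0.17. For 8729 features (91.4%) the 95% interval of the difference lay within 2-fold in both directions. All 3 arrays of one rest lay above all 3 of the other for 1690 features (17.7%). At an unadjusted p under 0.05 there were 1961 features (20.5%), 877 higher and 1084 lower. Unadjusted counts of the gene lists below are to be read beside these. These tests drew their estimate of spread from all 18 arrays. With the 6 compared arrays alone, 198 features passed, 54 higher and 144 lower. One array weighed on the counts: without replicate 1 of the miR-206 rest 359 features passed, 152 higher and 207 lower. Of those 359, 304 were among the 585 calls. With arrays centred on their medians, 344 were higher and 312 lower, so that rises made up 52.4% of the calls in place of 36.4%.

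Genes of the contractile apparatus fell furthest in the miR-206 rest. In a muscle fibre, thick filaments of myosin slide along thin filaments of actin, tropomyosin and troponin, which are anchored at Z-discs. Of 30 measured genes of these 3 structures, 24 fell and 0 rose, with a median of -1.70 beside -0.02 over all features. At an unadjusted p under 0.05, limma gave 27 lower and 0 higher. The largest change among all named genes was that of smyhc1, the myosin heavy chain gene of slow fibres. It read 29.6, 31.1 and 114 in the miR-206 rest and 1145, 1046 and 1149 in the miR-124 rest, 17.3-fold lower (log2 difference -4.11, SE 0.31, adjusted p = 3.84e-08). The groups were far apart, although the third array of the miR-206 rest was well above the other two.

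Among 9 thick-filament genes 7 fell (median -1.82). The gene ttn.2 for titin, the giant protein that spans the sarcomere from its end to its middle, read 74.6, 214 and 199 against 1032, 1124 and 1185 (log2 difference -2.78, SE 0.30, adjusted p = 4.96e-06). For the fast myosin light chain gene myl1 the values were 4.8, 2.3 and 8.9 in the miR-206 rest, near the bottom of the scale, and 52.4, 101 and 233 in the miR-124 rest (log2 difference -2.57, SE 0.36, adjusted p = 0.000137). Both genes kept their groups apart, although the 3 arrays of the miR-124 rest were spread widely for myl1. The light chain genes mylpfa (-1.50), myl10 (-1.86) and myl13 (-1.82) and the myosin-binding protein gene mybphb (-1.57) fell as well.

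Of 13 thin-filament genes 11 fell (median -1.47). The sarcomeric actin gene actc1b read 328, 247 and 351 in the miR-206 rest and 1605, 1562 and 2076 in the miR-124 rest (log2 difference -2.44, SE 0.22, adjusted p = 5.08e-07). The second actin gene acta1a read 419, 406 and 616 against 2274, 2431 and 2965 (log2 difference -2.39, SE 0.25, adjusted p = 2.67e-06). These actins were still bright in the miR-206 rest, far above the 64.8, 144 and 88.9 of acta1a in sorted CNS cells. Actin genes have very similar coding sequences, so their probe sets may share signal. The regulatory proteins of the filament were lower too. The troponin C gene tnnc2.2, whose product binds calcium, read 36.8, 28.4 and 54.2 against 298, 317 and 455 (log2 difference -2.74, SE 0.26, adjusted p = 9.62e-07), and the fast troponin I gene tnni2b.1 read 44.1, 34.2 and 72.7 against 235, 416 and 488 (log2 difference -2.56, SE 0.24, adjusted p = 7.06e-07). The tropomyosin gene tpma went from 199 ± 35.1 in the miR-124 rest to 19.4 ± 5.54 in the miR-206 rest (mean ± SD, n = 3; log2 difference -2.60, SE 0.19, adjusted p = 2.56e-08). In none of these did the groups overlap. The nebulin gene neb (-1.47) and the thin-filament cap gene tmod4 (-0.52) also fell, the latter by little.

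At the Z-disc 6 of 8 genes fell (median -1.61). The gene flncb, for the actin cross-linker filamin C, read 101, 147 and 184 in the miR-206 rest and 1139.7, 685 and 1221 in the miR-124 rest (log2 difference -2.68, SE 0.28, adjusted p = 2.92e-06). The alpha-actinin gene actn3b, whose product holds the ends of the actin filaments, read 24.1, 17.7 and 22 against 191, 135 and 232 (log2 difference -2.41, SE 0.17, adjusted p = 1.98e-08). Its replicates were close to each other on both sides. The gene nexn, for the filament-binding protein nexilin, read 23.8, 41.9 and 53.1 against 209.6, 406 and 307 (log2 difference -2.53, SE 0.23, adjusted p = 5.51e-07). The adaptor gene pdlim7 (-2.01) and the desmin gene desma (-1.20) fell with them.

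**Figure D1:**
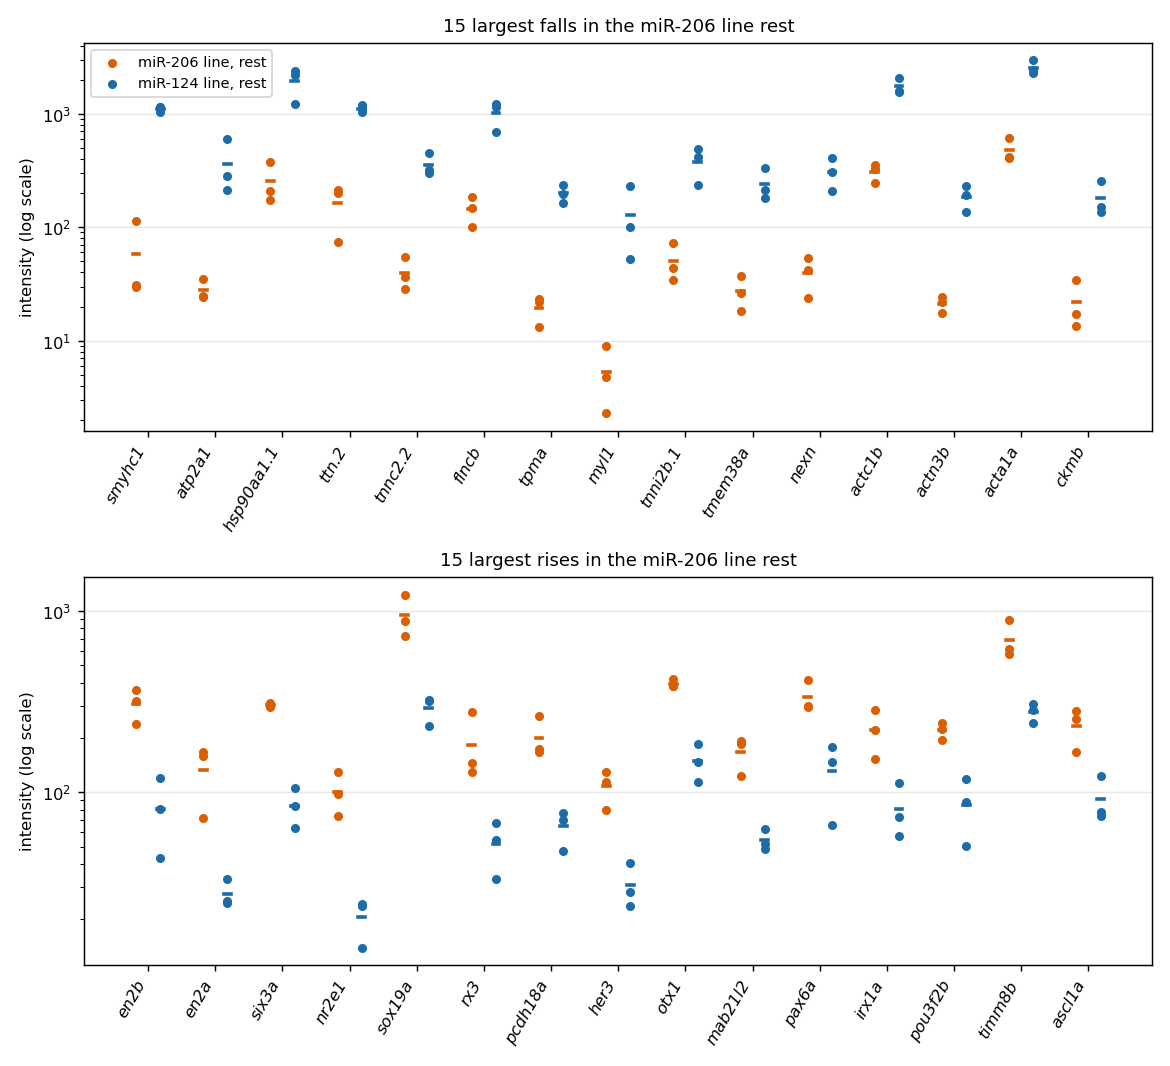
Intensity (log scale) of the 15 genes with the largest falls and the 15 with the largest rises in the miR-206 rest, 1 point per array and a bar at the mean of each group (n = 3). The groups of each gene do not overlap, by the rule that chose them; the falls are all of genes on the muscle lists with smyhc1 furthest apart, and the rises are all of genes on the neural lists except timm8b and pcdh18a.

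The machinery that releases and stores calcium fell with the filaments. Muscle contraction starts when calcium leaves the sarcoplasmic reticulum and ends when it is pumped back. Of 10 measured genes 6 fell and 0 rose, with a median of -0.89. The gene atp2a1, for the fast-fibre calcium pump, read 24.8, 24.4 and 34.7 in the miR-206 rest and 215, 281 and 599 in the miR-124 rest (log2 difference -2.99, SE 0.37, adjusted p = 2.18e-05). The cation channel gene tmem38a, whose product balances the charge of released calcium, read 26.6, 18.1 and 37.5 against 214, 179 and 332 (log2 difference -2.55, SE 0.22, adjusted p = 3.9e-07). The calcium-binding protein genes srl (-2.17) and casq2 (-1.63) were lower by smaller steps. All 4 genes had groups that did not overlap.

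In a list of chaperones and other proteins that build and turn over sarcomeres, 8 of 9 genes fell with a median of -1.05. One of the 8, hsp90aa1.2, was higher in sorted CNS cells than in muscle, unlike the other 7. The gene hsp90aa1.1, whose product works with unc45b to fold myosin heads in zebrafish fibres, read 211, 172 and 379 in the miR-206 rest and 2222, 1229 and 2397 in the miR-124 rest (log2 difference -2.88, SE 0.30, adjusted p = 3e-06). Its neighbour and near copy hsp90aa1.2 may share part of that signal. The gene unc45b read 265, 143 and 272 against 792, 701 and 684 (log2 difference -1.66, SE 0.17, adjusted p = 2.99e-06), and klhl41b, needed for sarcomere assembly, went down from 197 ± 84.4 to 23.6 ± 6.65 (mean ± SD, n = 3; log2 difference -2.37, SE 0.28, adjusted p = 1.08e-05). The groups of all 3 were apart. Of 15 energy genes 4 fell (median -0.23), all of them muscle isoforms that recycle ATP or split sugar: the creatine kinase genes ckmb (-2.38) and ckma (-1.60), the aldolase gene aldoab (-1.98) and the adenylate kinase gene ak1 (-1.62). Between the sorted populations 7 of the 15 were called higher in muscle and 2 in CNS cells. Not every gene brighter in sorted muscle fell: gapdh differed by -0.14 between the rests and pgam2 by 0.0. At the nerve-muscle contact and muscle membrane 2 of 8 fell, the acetylcholine receptor gene chrna1 (-1.17, adjusted p = 0.0002) and the caveolin gene cav3 (-0.83, adjusted p = 0.021). Each of the 12 wild-type arrays was also left out in turn, and the range of adjusted p over those 12 fits is given below for genes whose call it changed. The cav3 call was lost without replicate 1 or 2 of the miR-206 rest or replicate 2 or 3 of the miR-124 rest (adjusted p from 0.00661 to 0.0989 with 1 array left out).

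The regulators that make muscle differed by a smaller median than the filament genes they switch on. Of 14 myogenic genes 5 fell (median -0.44) and 13 had negative differences. The 2 lists also differ in make-up. Between the sorted populations 9 of these 14 were called higher in muscle and 3 in CNS cells. Of the 30 filament and Z-disc genes 28 and 1 were. The differentiation factor myogenin, myog, stood at 63.3 ± 3.26 in the miR-206 rest and 307 ± 108 in the miR-124 rest (mean ± SD, n = 3; log2 difference -1.97, SE 0.23, adjusted p = 7.88e-06). The determination factor gene myod1 was dimmer, at 18.5, 8.6 and 15.7 against 61.3, 49.1 and 41 (log2 difference -1.14, SE 0.19, adjusted p = 0.000547). For its partner mef2d the values were 65.3, 99.6 and 94.7 and 272, 367 and 379 (log2 difference -1.80, SE 0.18, adjusted p = 2.02e-06). The arrays of the 2 rests lay apart for these 3. The early determination gene myf5 passed narrowly and its groups overlapped, at 68.8, 24.1 and 59.4 against 164, 110.5 and 66.3 (log2 difference -0.96, SE 0.28, adjusted p = 0.0466). It passed in 5 of these 12 fits (adjusted p from 0.0123 to 0.179 with 1 array left out) and six4a (-0.49) in 2 (adjusted p from 0.0321 to 0.161 with 1 array left out); with replicate 2 of the miR-206 rest or replicate 1 of the miR-124 rest left out, 3 of the 14 passed, as also without replicate 2 or 3 of sorted muscle or replicate 3 of sorted CNS cells. Of 7 myoblast fusion genes jam2a, a membrane protein gene required for fusion in zebrafish, was lower (-1.30, adjusted p = 0.00057), and the other 6 lay between -0.08 and 0.13.

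Over all muscle lists together, 50 of 93 genes fell and 0 rose (median -0.69). This stands beside 3.9% of all features that fell; at an unadjusted p under 0.05, 59 were lower and 1 higher in limma. Of the 30 filament and Z-disc genes 28 were also called higher in sorted muscle than in sorted CNS cells, a comparison of other arrays in which 18.3% of features were higher in muscle. In bulk samples such as these, fewer cells of a type and less RNA per cell cannot be told apart.

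Of 26 genes of younger mesoderm, the presomitic mesoderm and somites, 4 fell and 0 rose (median -0.30), beside 3.9% of all features that fell. At an unadjusted p under 0.05, 8 were lower and 0 higher in limma. The 4 were tcf15, which keeps somites epithelial, at 50.1, 21 and 39.6 in the miR-206 rest and 242, 144 and 92.9 in the miR-124 rest (log2 difference -1.68, SE 0.25, adjusted p = 0.000246), the retinoic acid synthesis gene aldh1a2 (-1.52, adjusted p = 8.81e-05), the fibronectin gene fn1b (-1.17, adjusted p = 0.00508) and the forkhead factor gene foxc1a (-0.77, adjusted p = 0.0141). The foxc1a call was lost without replicate 2 of the miR-206 rest or replicate 1 of the miR-124 rest (adjusted p from 0.00509 to 0.0646 with 1 array left out). In the tail bud, the T-box gene tbx16, which drives mesoderm progenitors out of the tail bud, read 241, 140.5 and 308 against 439, 254 and 163, a difference of -0.25 (95% interval -1.09 to 0.59). The presomitic factor gene msgn1 read 2094, 1287 and 1930.4 against 2339, 2251 and 1105, a difference of -0.05 (-1.02 to 0.91). Groups of both overlapped widely. Neither passed (adjusted p = 0.772 and 0.964), and both intervals reach past a 2-fold fall. The presomitic gene tbx6 also missed the threshold, with 68.8, 46.8 and 73.9 against 186, 215 and 61.4 (log2 difference -0.97, SE 0.31, adjusted p = 0.0688). It passed without replicate 3 of the miR-124 rest (adjusted p from 0.00104 to 0.248 with 1 array left out). Between the sorted populations 24 of the 26 genes were called higher in muscle and 1 in CNS cells. This stands beside 18.3% and 26.1% of all features. The mean of tbx16 was 278 in sorted muscle and 17.9 in sorted CNS cells, and that of msgn1 1992 and 147.

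**Figure D2:**
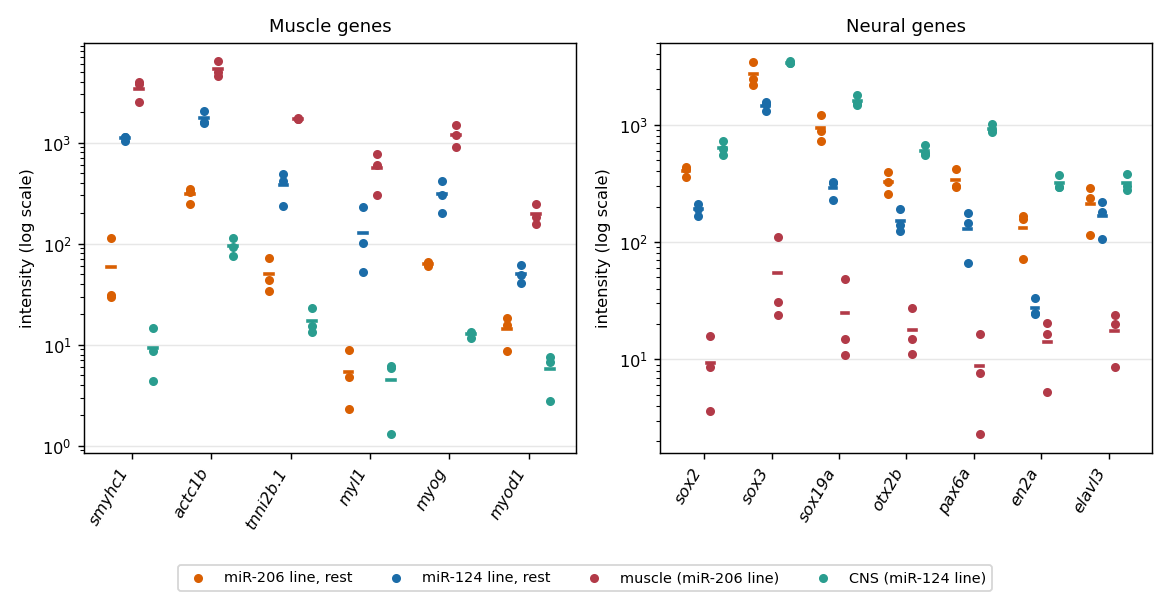
Intensity (log scale) of 6 muscle and 7 neural genes in the 2 rests and in the 2 sorted wild-type populations, 1 point per array and a bar at the mean (n = 3). Muscle genes in the miR-206 rest lie closer to sorted CNS cells than in the miR-124 rest, whereas neural genes other than en2a stay far above sorted muscle in the miR-124 rest.

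In the opposite direction, genes of the early neural tube were higher in the miR-206 rest. Of 140 genes in 4 neural lists 42 rose and 0 fell, with a median of 0.35, beside 2.23% of all features that rose. At an unadjusted p under 0.05, limma gave 58 higher and 3 lower. Among 39 genes of neural progenitors, the dividing cells that line the tube, 16 rose (median 0.61). The SoxB1 factor gene sox19a, an early zebrafish marker of neural ectoderm, read 1223, 728 and 883 in the miR-206 rest and 231, 324 and 316 in the miR-124 rest, 3.1-fold higher (log2 difference 1.63, SE 0.27, adjusted p = 0.000721). Its relative sox2, which keeps progenitors undifferentiated, read 422, 434 and 362 against 192, 211 and 167 (log2 difference 1.03, SE 0.18, adjusted p = 0.001). The groups did not overlap in either gene. The third SoxB1 gene, sox3, was brightest, at 3414, 2190.3 and 2449.6 against 1494, 1573 and 1309.7, yet missed the threshold (log2 difference 0.85, SE 0.27, adjusted p = 0.073) although its groups were apart as well. It passed without replicate 2 or 3 of sorted muscle, which enter through the shared estimate of spread (adjusted p from 0.00133 to 0.259 with 1 array left out).

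The orphan nuclear receptor gene nr2e1, a regulator of forebrain and retinal progenitors, read 98, 128 and 73.9 in the miR-206 rest and 13.9, 23.5 and 24.3 in the miR-124 rest (log2 difference 1.65, SE 0.18, adjusted p = 3.14e-06). The POU factor gene pou3f2b read 239.5, 224 and 195 against 50.6, 118 and 87.9 (log2 difference 1.27, SE 0.22, adjusted p = 0.000937). Neither gene had overlapping groups. The related gene pou3f3a (0.84), the Iroquois gene irx1a (1.28), the zic genes zic2b (1.12), zic5 (0.85) and zic6 (0.87) and the SoxB2 genes sox21a (0.91) and sox21b (0.97) rose by similar steps.

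In the forebrain and eye list 13 of 32 genes rose (median 0.54). The homeobox gene six3a, needed for the anterior forebrain and eye, read 305, 312 and 293 in the miR-206 rest and 63.1, 105 and 83.7 in the miR-124 rest, 3.25-fold higher (log2 difference 1.70, SE 0.18, adjusted p = 3.14e-06). Its replicates were close to each other in the miR-206 rest. The eye field factor gene rx3 read 276, 144 and 128 against 33.4, 67.5 and 54.5 (log2 difference 1.51, SE 0.25, adjusted p = 0.00053), with replicate 1 of the miR-206 rest the highest. The head gap gene otx1 read 419, 385 and 383 against 114, 146 and 184 (log2 difference 1.35, SE 0.21, adjusted p = 0.000371), and otx2b, which specifies forebrain and midbrain, read 393, 259 and 323 against 123, 139 and 193 (log2 difference 1.03, SE 0.19, adjusted p = 0.00221). All 4 kept the groups apart. The eye and tectum gene mab21l2 went from 54.4 ± 7.66 to 166 ± 37 (mean ± SD, n = 3; log2 difference 1.35, SE 0.17, adjusted p = 2.31e-05). The eye master gene pax6a (1.34, adjusted p = 0.00294) and the LIM factor gene lhx5 (1.07, adjusted p = 0.000413) rose too.

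The largest rise of any named gene came from the midbrain-hindbrain boundary. This boundary organises the midbrain and cerebellum and expresses engrailed genes. In this list 8 of 27 genes rose (median 0.25). The engrailed gene en2b read 236, 366 and 319.5 in the miR-206 rest and 43.2, 120.0 and 80.6 in the miR-124 rest, 3.46-fold higher (log2 difference 1.79, SE 0.25, adjusted p = 0.000137). Its paralogue en2a read 72.1, 158 and 167 against 24.4, 25.1 and 33.3 (log2 difference 1.70, SE 0.26, adjusted p = 0.00035), with the first array of the miR-206 rest lowest. Neither pair of groups overlapped. The Hairy-related repressor gene her3 read 129, 114 and 80 against 28.1, 23.6 and 40.5 (log2 difference 1.40, SE 0.20, adjusted p = 0.000187) and dmbx1a, a midbrain homeobox gene, 401, 431 and 341 against 138, 175 and 182 (log2 difference 1.17, SE 0.17, adjusted p = 0.000221). The gene pax2a, which acts at the boundary and also in ear and kidney, went from 105 ± 14.6 to 189 ± 33.7 (mean ± SD, n = 3; log2 difference 0.75, SE 0.16, adjusted p = 0.00582). Further back, the hindbrain gene egr2b of rhombomeres read 343, 289.8 and 228 against 114, 218 and 211 and did not pass (log2 difference 0.65, SE 0.25, adjusted p = 0.128), although the groups were apart.

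Genes of differentiating neurons differed less. Of 43 such genes 6 rose (median 0.15), and for 38 the 95% interval lay within 2-fold. The neural lists also differ in make-up. Their median difference of sorted muscle minus sorted CNS cells was -1.28 for neurons and -2.69 for progenitors. It was -1.79 for forebrain and eye and -1.26 for the midbrain-hindbrain list. Those that rose included the proneural gene ascl1a, which starts neuron formation, at 279.8, 253 and 166 in the miR-206 rest and 77.4, 73.9 and 122 in the miR-124 rest (log2 difference 1.21, SE 0.21, adjusted p = 0.000921), and the interneuron progenitor gene dbx1a at 85.3, 55.3 and 53.6 against 19.8, 18.3 and 30.2 (log2 difference 1.05, SE 0.18, adjusted p = 0.000743). The tubulin gene tubb5 (0.68, adjusted p = 0.0116) and the factor gene bhlhe22 (0.63, adjusted p = 0.0157) rose slightly. Without replicate 1 of the miR-124 rest 3 of the 43 passed, and tubb5 and bhlhe22 were no longer among them (adjusted p from 0.00734 to 0.0509 with 1 array left out, and adjusted p from 0.00885 to 0.071 with 1 array left out). The other called members were the stathmin gene stmn4 (0.80) and the motor neuron progenitor gene olig2 (0.63). None of the defining neuron markers passed. The marker gene neurog1 read 36.3 ± 5.55 in the miR-206 rest and 22.3 ± 1.24 in the miR-124 rest, with groups apart (mean ± SD, n = 3, log2 difference 0.44, adjusted p = 0.289). The other markers, elavl3 and isl1a, overlapped between the rests. The RNA-binding protein gene elavl3, a general mark of young neurons, read 115, 286 and 236 against 106, 182 and 218 (0.28, adjusted p = 0.666). The motor and sensory neuron gene isl1a read 223, 144 and 146 against 185, 222 and 255 (-0.35, adjusted p = 0.548). Of 22 Delta-Notch genes, whose signals hold back neuron formation, 1 was higher and 2 were lower, beside 2.23% and 3.9% of all features. The ligand gene jag2b was higher (0.69), and the receptor gene notch2 (-0.65) and target gene hey1 (-1.06) were lower. Each of the 3 calls was lost without replicate 1 of the miR-206 rest, among other arrays (adjusted p from 0.0144 to 0.127 with 1 array left out for jag2b, adjusted p from 0.0146 to 0.216 with 1 array left out for notch2 and adjusted p from 0.00774 to 0.148 with 1 array left out for hey1).

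The 2 rests differed in how far the genes of their own sorted tissue stood below that tissue. These percentages compare levels in 2 RNA pools and are not shares of tissue removed. Of the defining muscle genes, smyhc1 stood in the miR-206 rest at 1.70% of its mean in sorted muscle, tnni2b.1 at 2.93%, myog at 5.26%, actc1b at 5.81% and myf5 at 18.4%. The means of myl1, mylpfa and myod1 there lay below the arrays' 40th percentile (21.9 to 25.8), so no percentage is given for them. Both smyhc1 and actc1b were still above sorted CNS cells, where smyhc1 read 8.7, 14.6 and 4.4. Among the neural markers in the miR-124 rest, pax6a stood at 14.0% of its mean in sorted CNS cells, sox19a at 18.2%, otx2b at 25.5%, sox3 at 43.1%, pax2a at 45.0% and elavl3 at 52.6%. In sorted muscle sox2 read 3.6, 15.7 and 8.6, far below the 192, 211 and 167 of the miR-124 rest. Against the label of that fraction, most neural markers were thus still well measured in it, although en2a lay near the 40th percentile. The gene isl1a was higher in the miR-124 rest than in sorted CNS cells (312%).

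The levels left were also taken across features. Muscle features were taken as those called at least 4-fold higher in sorted muscle than in sorted CNS cells, and CNS features as the reverse, on arrays that the comparison of the rests does not use; the 4-fold limit was chosen after the data were seen. The sorted arrays that chose these features also set the percentages below. Those percentages take in features that were dim in a rest, such as myl1 in the miR-206 rest. Of 242 muscle features, 145 (59.9%) fell in the miR-206 rest and 1 rose, with a median difference of -0.83. Of all features 3.9% fell and 2.23% rose, with a median of -0.02. Their median level in the miR-206 rest was 18.2% of that in sorted muscle (quartiles 7.47% and 35.7%), and in the miR-124 rest, which kept its muscle, 39.1% (30% and 55.4%). Of 259 CNS features, 69 (26.6%) rose in the miR-206 rest and 2 fell, with a median of 0.44. Their median level in the miR-124 rest was 40.2% of that in sorted CNS cells (upper quartile 63.6%), and in the miR-206 rest, which kept its CNS, 58.7% (upper quartile 77.1%).

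Calls of the rests were then set beside calls of the sorted cells. Of the 213 features higher in the miR-206 rest, 145 (68.1%) were higher in sorted CNS cells than in muscle, where 26.1% of all features were, and 22 (10.3%) were higher in muscle. Of the 372 lower ones, 254 (68.3%) were higher in sorted muscle and 41 (11%) in CNS cells. In all, 399 of 585 calls (68.2%) had opposite signs in the 2 comparisons, which is 9.41% of the 4242 features called between the sorted populations. Across features the 2 differences correlated at r = -0.533 (Spearman's rho = -0.271, n = 9548). The comparisons share no array, but the fractions of 1 line were sorted from embryos of the same line and all arrays share 1 model and 1 estimate of spread.

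**Figure D3:**
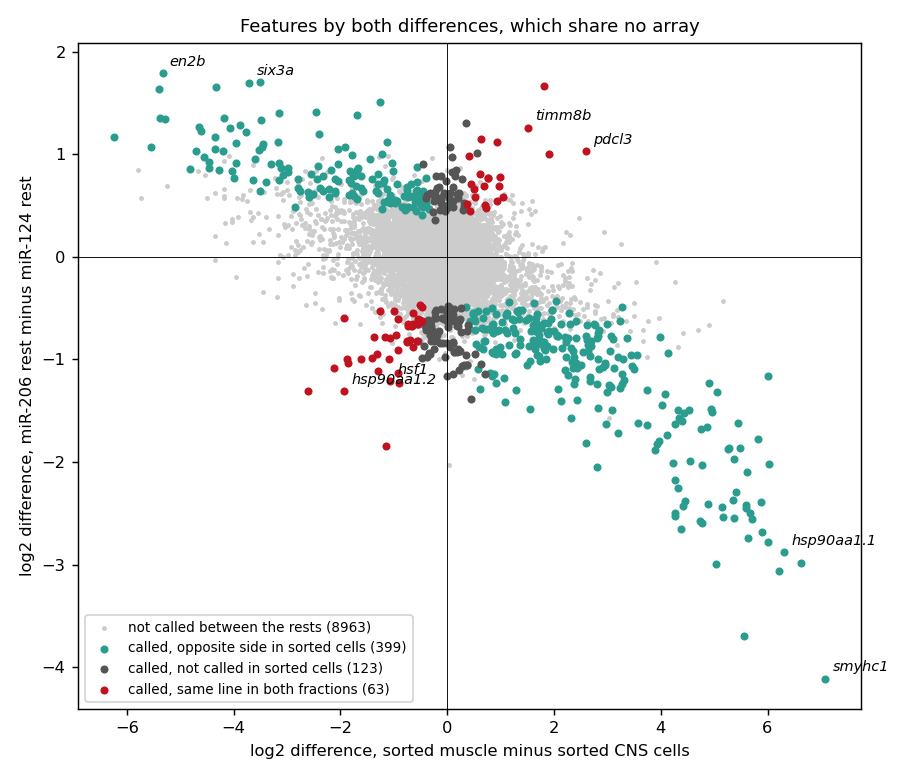
Each point is 1 of 9548 features, with its log2 difference of sorted muscle minus sorted CNS cells on the horizontal axis and of the miR-206 rest minus the miR-124 rest on the vertical axis. The 399 features called with opposite signs run from upper left to lower right, and 63 red points were called on the same line's side in both fractions.

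The Dicer-mutant arrays, from embryos in which the microRNA-cutting enzyme Dicer is mutated, gave values from further arrays. There, sorted CNS cells were compared with the mutant rest, and 6.49% of features were higher and 9.03% lower in the CNS cells. Of the 213 features higher in the miR-206 rest, 106 (49.8%) were higher in mutant CNS cells and 1 was lower. Of the 372 lower ones, 222 (59.7%) were lower in mutant CNS cells and 3 were higher. The correlation across features was r = 0.566 (rho = 0.387). For smyhc1 the mutant rest read 872, 739.9 and 933, next to 1145, 1046 and 1149 in the miR-124 rest. For en2b it read 83.1, 138 and 81.1, next to 43.2, 120.0 and 80.6. The mutant rest was somewhat below the miR-124 rest for smyhc1 and overlapped it for en2b, and the miR-206 rest stood apart from both.

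Some genes were called toward the same line in both fractions. Of the 585 calls, 63 (10.8%), 37 of them with a gene symbol, pointed to the same line in the rest and in the sorted cells, which is 1.49% of the calls between sorted cells. These shares lay below the background: 22 of 213 rises (10.3%) were higher in muscle, beside 18.3% of all features, and 41 of 372 falls (11%) were higher in CNS cells, beside 26.1%. Without replicate 1 of the miR-206 rest there were 39. The mitochondrial import gene timm8b read 890.5, 613 and 576 in the miR-206 rest and 1099.7, 974 and 853 in the sorted muscle of that line, against 308, 239.6 and 283 and 347, 290.2 and 352 in the rest and CNS of the miR-124 line (log2 difference 1.26, SE 0.18, adjusted p = 0.000176 between the rests). Both fractions of the miR-206 line were above both of the miR-124 line in every array. The sugar reductase gene dcxr showed the same order between the rests, at 344, 258 and 296 against 112, 136 and 128 (log2 difference 1.15, SE 0.16, adjusted p = 0.000151), and pdcl3, a helper of the CCT chaperonin, read 495, 430.0 and 366 against 180.3, 227 and 199.7 (log2 difference 1.03, SE 0.24, adjusted p = 0.012). The pdcl3 call was lost without replicate 1 of the miR-206 rest (adjusted p from 0.00975 to 0.0571 with 1 array left out).

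Other genes were called toward the miR-124 line in both fractions. Among them hsf1, the gene of the heat shock transcription factor, read 35.9, 39.2 and 37.4 in the miR-206 rest and 129, 93.7 and 102 in the miR-124 rest (log2 difference -1.21, SE 0.20, adjusted p = 0.000627). It read 36.7, 43.6 and 76.2 in sorted muscle against 121, 142 and 106 in sorted CNS cells. The chaperone gene hsp90aa1.2 read 378, 436 and 269 against 973, 470.4 and 1591 (log2 difference -1.31, SE 0.31, adjusted p = 0.0137), with the groups just apart. The constitutive chaperone gene hspa8b was dim in the wild type, at 22.1, 20 and 11 against 44.2, 33.5 and 82.6 (1.99-fold lower, adjusted p = 0.0193), and read 998, 1178 and 694 in the mutant rest. Of other heat shock genes on the lists, hsp90aa1.1 (-2.88), hspb8 (-1.05) and hspd1 (-0.63) were called lower between the rests. Their differences of sorted muscle minus sorted CNS cells were 6.31, 1.5 and 0.42, so they did not point to the same line. The genes hspa8 (-0.22), dnajb1a (0.37), dnajb1b (0.13) and hspb1 (0.38) were not called between the rests. The hsp90aa1.2 and hspa8b calls were lost without replicate 3 of the miR-206 rest or of the miR-124 rest (adjusted p from 0.000312 to 0.0708 with 1 array left out for hsp90aa1.2 and adjusted p from 0.00875 to 0.0972 with 1 array left out for hspa8b). The podocyte and vessel protein gene podxl read 270.1, 320.5 and 365 against 640.0, 757 and 678 (log2 difference -1.09, SE 0.17, adjusted p = 0.000494). The carbonic anhydrase gene ca2 was lower as well (2-fold, adjusted p = 0.0221), but not without replicate 1 of the miR-206 rest or replicate 3 of the miR-124 rest (adjusted p from 0.0163 to 0.13 with 1 array left out). The membrane sorting gene mvb12a (-1.11) lost its call without replicate 2 of the miR-206 rest or replicate 2 of the miR-124 rest (adjusted p from 0.000322 to 0.0733 with 1 array left out), and the collagen-modifying enzyme gene p4ha1b (-0.88) without replicate 3 of the miR-206 rest or replicate 3 of the miR-124 rest (adjusted p from 0.018 to 0.114 with 1 array left out).

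**Figure D4:**
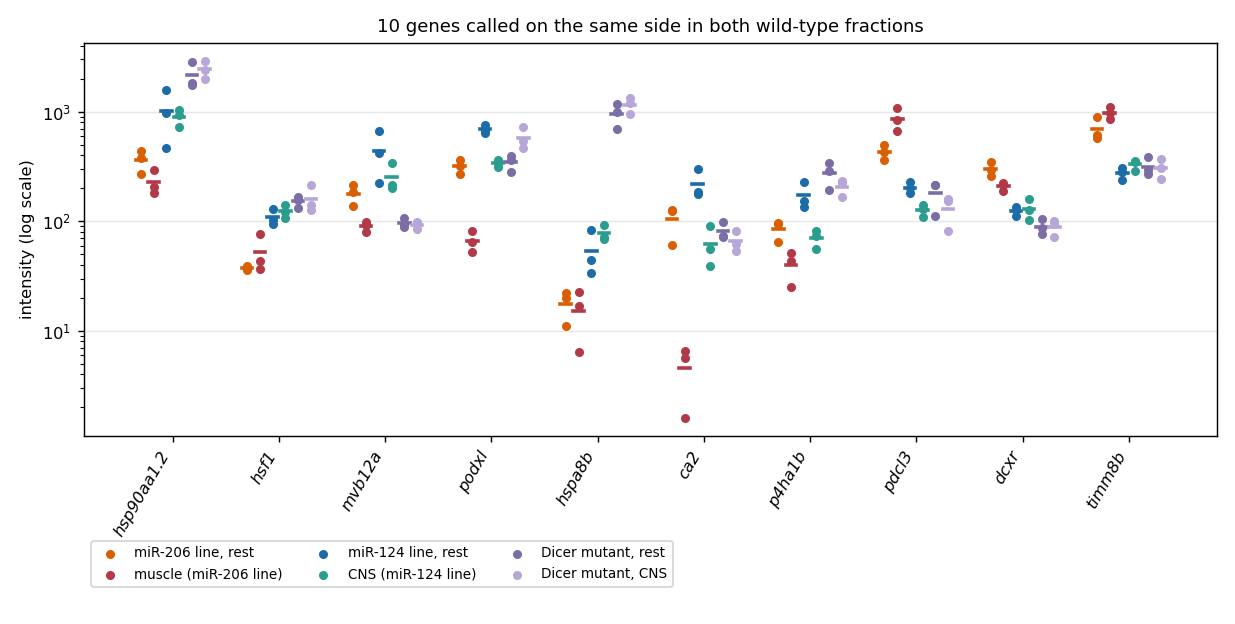
Intensity (log scale) of 10 genes called toward the same line in both wild-type fractions, in all 6 groups of the study, 1 point per array and a bar at the mean (n = 3). With rest set against rest and sorted against sorted cells, timm8b, dcxr and pdcl3 are higher in the miR-206 line and the other 7 in the miR-124 line. For ca2 the mean of the miR-206 rest (104) is still above that of sorted CNS cells (61.7). The gene hspa8b is highest in the 6 mutant arrays.

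Several blood, vessel and heart genes were lower in the miR-206 rest. Vessel lining cells and blood cells arise from neighbouring mesoderm beside the somites. Of 18 endothelial genes 8 were lower and 1 higher (median -0.73, 17 below 0), beside 3.9% and 2.23% of all features. At an unadjusted p under 0.05, 14 endothelial genes were lower and 1 higher, and 13 of the red blood cell genes lower and 0 higher. For the heart genes, 7 were lower and 1 higher, and for the myeloid genes 3 lower and 1 higher. At that p, 1084 of all 9548 features were lower and 877 higher. The Src-family kinase gene yrk read 154, 174 and 265 in the miR-206 rest and 574, 375 and 722 in the miR-124 rest (log2 difference -1.41, SE 0.27, adjusted p = 0.00264), the mannose receptor gene mrc1a 9.1, 16.6 and 15.3 against 55.4, 38 and 48.5 (log2 difference -1.09, SE 0.16, adjusted p = 0.000178), and lmo2, a factor shared by blood and vessel precursors, 252, 302 and 300.4 against 444, 500.1 and 582 (log2 difference -0.80, SE 0.16, adjusted p = 0.00388). Groups were apart for all 3. The count was 4 without replicate 1 of the miR-206 rest and 5 without replicate 1 of the miR-124 rest. The vessel receptor gene kdrl read 69.7, 225 and 301 against 505, 246 and 553 and did not pass (log2 difference -1.19, SE 0.42, adjusted p = 0.105), except without replicate 3 of the miR-206 rest (adjusted p from 0.0388 to 0.454 with 1 array left out); here replicate 1 of the miR-206 rest was lowest and replicate 2 of the miR-124 rest fell inside the other group. The other defining vessel marker, fli1, passed narrowly, at 192 ± 63.3 against 324 ± 55.2 (mean ± SD, n = 3, log2 difference -0.75, adjusted p = 0.0464). Its call was lost in 7 of the 12 fits (adjusted p from 0.0182 to 0.234 with 1 array left out). Against the rest of the list, the sphingosine receptor gene s1pr1 was higher (0.92, adjusted p = 0.0221), a call lost without replicate 1 or 2 of the miR-206 rest or replicate 1 or 3 of the miR-124 rest (adjusted p from 0.00284 to 0.0919 with 1 array left out). Its groups overlapped. In sorted cells s1pr1 read 543, 629 and 534 in CNS and 12, 23.9 and 31.2 in muscle. Of the 18 endothelial genes 10 were called higher in sorted muscle and 3 in sorted CNS cells. For the 27 red blood cell genes these counts were 10 and 2. For 14 myeloid genes they were 3 and 2, and for 13 heart genes 1 and 2. Over all features 18.3% were higher in muscle and 26.1% in CNS cells.

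Of 27 red blood cell genes 5 were lower (median -0.52, 25 below 0): the embryonic globin gene hbbe2 (-1.15), the membrane skeleton genes sptb (-1.14) and dmtn (-0.82), lmo2 and ca2. The count was 1 without replicate 1 of the miR-206 rest and likewise without replicate 3 of the miR-124 rest. The calls of sptb (adjusted p from 0.00678 to 0.0792 with 1 array left out) and dmtn (adjusted p from 0.00221 to 0.115 with 1 array left out) were among those lost. The most abundant globin gene of the list's markers, hbae3, read 1814, 2749 and 3292 against 3956, 4847 and 4431, a difference of -0.79 with a 95% interval of -2.19 to 0.61 that takes in 0 (adjusted p = 0.548). The erythroid master gene gata1a read 142, 155 and 216 against 333, 191 and 375 (log2 difference -0.72, SE 0.28, adjusted p = 0.133), and passed without replicate 2 of the miR-124 rest or replicate 1 of sorted muscle (adjusted p from 0.0443 to 0.339 with 1 array left out). The summed intensity of the 27 genes was 9189, 10867 and 13777 in the miR-206 rest and 15598, 15074 and 17744 in the miR-124 rest, with no overlap. None of the defining markers gata1a, hbae3 and hbbe3 passed limma's test with all arrays in the fit. For hbbe3 the difference was -0.45 with a 95% interval of -1.43 to 0.53 (adjusted p = 0.631).

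Among 14 myeloid genes 2 were lower, the factor genes spi1b (28.9, 98.4 and 117 against 142, 133 and 269; log2 difference -1.10, SE 0.32, adjusted p = 0.042) and cebpa (-0.66, adjusted p = 0.0415), and neither passed without replicate 1 of the miR-206 rest or replicate 3 of the miR-124 rest, among other arrays (adjusted p from 0.0139 to 0.226 with 1 array left out for spi1b and adjusted p from 0.0105 to 0.15 with 1 array left out for cebpa). The myeloid marker gene lcp1 did not pass (-0.79, adjusted p = 0.109), except without replicate 3 of the miR-206 rest or replicate 1 of the miR-124 rest (adjusted p from 0.00703 to 0.382 with 1 array left out). Of 13 heart genes 3 were lower, the ventricular myosin gene myh7 (56.9, 108 and 155 against 255, 201 and 189, log2 difference -0.99, SE 0.23, adjusted p = 0.0133), the cardiac troponin T gene tnnt2a (-0.88, adjusted p = 0.00986) and the factor gene gata6 (-0.49, adjusted p = 0.0444). None of the 13 passed without replicate 1 of the miR-206 rest, and 1 without replicate 1 of the miR-124 rest (adjusted p from 0.00136 to 0.0764 with 1 array left out for myh7, adjusted p from 0.000718 to 0.053 with 1 array left out for tnnt2a and adjusted p from 0.0261 to 0.174 with 1 array left out for gata6). The heart light chain gene myl7 read 47.9, 66.3 and 99.1 against 109, 103 and 97.8 (log2 difference -0.49, SE 0.21, adjusted p = 0.189). Replicate 1 of the miR-206 rest, whose median intensity was the lowest (36.5), had the lowest summed intensity of the red blood cell, endothelial (1987) and myeloid (1815) lists but not of the heart list (2197, against 1928 in replicate 2). The summed endothelial genes read 1987, 2513 and 2607 in the miR-206 rest and 3837, 3228 and 4151 in the miR-124 rest, without overlap, and the summed heart genes 2197, 1928 and 2297 against 3136, 2476 and 2568, also without overlap. The summed myeloid genes did overlap, at 1815, 2252 and 2304 against 2236, 2530 and 3520. Sums follow the brightest members of a list most. The heart list also holds fgf8a, which is on the presomitic and hindbrain lists, and the neuron marker isl1a. Among single features, 17.7% had groups that did not overlap, a share that gives no background for sums.

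Lists of tissues outside muscle, neural tube and blood are read against the 3.9% of all features that were lower and the 2.23% that were higher. Of 48 skin genes 1 was lower, the keratin gene krt94 (-0.84, adjusted p = 0.00508), and the median was -0.07; without replicate 1 of the miR-124 rest 5 were lower. For 37 of the 48 the 95% interval lay within 2-fold. The epidermal factor gene tp63 read 234, 331 and 332 in the miR-206 rest and 205, 430.5 and 328 in the miR-124 rest (-0.06, 95% interval -0.68 to 0.56), and the epithelial adhesion gene epcam read 1172, 1327 and 1335 against 1324, 1259 and 1841 (-0.19, -0.94 to 0.56). Both pairs of groups overlapped. The keratin gene krt8 did not pass (-0.40, 95% interval -0.82 to 0.02, adjusted p = 0.27). In the hatching gland list limma called 0 of 9 genes, and 0 at an unadjusted p under 0.05, and all 9 intervals lay within 2-fold. The defining markers of the gland, he1.1 and ctslb, were not among these 9, so its specific genes were not compared. Of 26 notochord genes 3 were lower, cav1 (-0.98), p4ha1b and the spondin gene spon1b (-0.56), with a median of -0.13. The spon1b call was lost without replicate 1 or 2 of the miR-206 rest or replicate 1 of the miR-124 rest (adjusted p from 0.0146 to 0.0687 with 1 array left out). The notochord factor gene tbxta read 265, 208 and 238 against 239, 154 and 156 (0.37, adjusted p = 0.381). The other notochord marker, noto (0.61, adjusted p = 0.279), passed only without replicate 2 of the miR-206 rest (adjusted p from 0.0296 to 0.88 with 1 array left out).

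Among 12 kidney genes 1 was higher and 2 were lower, beside 2.23% and 3.9% of all features. The higher one was pax2a, and the lower ones were podxl and the tubule cadherin gene cdh17 (-0.63, adjusted p = 0.0396). The cdh17 call was lost without replicate 1 or 2 of the miR-206 rest or replicate 1 or 3 of the miR-124 rest (adjusted p from 0.0167 to 0.208 with 1 array left out). In the endoderm list 1 of 14 (gata6) was lower, in the lateral mesoderm and fin list 1 of 16 (foxc1a), and in the ear and placode list 1 of 10 (pax2a) was higher. The endoderm marker gene foxa2 did not pass (0.21, adjusted p = 0.527). Of 15 neural crest genes 1 was lower, snai2 (-0.67, adjusted p = 0.0269), a call lost without replicate 1 or 2 of the miR-206 rest or replicate 1, 2 or 3 of the miR-124 rest (adjusted p from 0.0164 to 0.0968 with 1 array left out), while the crest genes foxd3 (187, 127 and 102 against 175, 252 and 227), sox10 (520.1, 671 and 655 against 232, 467 and 495) and crestin (152, 517 and 562 against 252, 305 and 403) did not pass (adjusted p = 0.0807, 0.145 and 0.798). Without replicate 1 of the miR-206 rest foxd3 and crestin passed (adjusted p from 0.0228 to 0.242 with 1 array left out for foxd3 and adjusted p from 0.0286 to 0.979 with 1 array left out for crestin). Between the sorted populations 3 of the 15 crest genes were called higher in muscle and 9 in CNS cells. Sorted muscle minus sorted CNS cells gave 2.61 for snai2 and 3.34 for foxd3, but -3.21 for sox10 and -2.35 for crestin. Of 7 germ plasm genes limma called 0, and 1 was lower at an unadjusted p under 0.05. The germ cell gene nanos3 read 32.5, 19.9 and 154 in the miR-206 rest and 33.2, 3353 and 106 in the miR-124 rest, so that 1 array alone stood over 30-fold above the others of its group (adjusted p = 0.216). It passed without replicate 1 of the miR-124 rest (adjusted p from 0.0333 to 0.857 with 1 array left out).

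The extracellular matrix holds somites and muscle fibres in place. Of 33 matrix genes 5 fell and 0 rose (median -0.24), beside 3.9% and 2.23% of all features. The fibrillar collagen gene col5a2a read 237, 249 and 374 in the miR-206 rest and 1146, 663 and 711 in the miR-124 rest (log2 difference -1.49, SE 0.20, adjusted p = 8.03e-05). The thrombospondin gene thbs4b of muscle-tendon attachments read 28.9, 33.7 and 55.6 against 145, 96.7 and 179.8 (log2 difference -1.49, SE 0.24, adjusted p = 0.00057). Groups were apart in both. The others were fn1b, col1a1a (-1.09) and the hyaluronan synthase gene has2 (-0.79), the last not without replicate 1 of the miR-206 rest or replicate 1 of the miR-124 rest (adjusted p from 0.00646 to 0.0658 with 1 array left out). Without replicate 1 of the miR-206 rest 3 fell and without its replicate 3 there were 8. Between the sorted populations 17 of the 33 were called higher in muscle and 6 in CNS cells. Of 34 hox genes, which give cells their position along the trunk, 2 were lower, hoxb8a (70.5, 85.5 and 123 against 171, 156 and 232; log2 difference -0.90, SE 0.20, adjusted p = 0.008) and hoxa11a (-0.69, adjusted p = 0.00787), with a median of -0.14, and 28 of the 34 were higher in sorted muscle than in sorted CNS cells.

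Cell division genes mostly had small positive differences. Of 64 measured, 58 were above 0 with a median of 0.30, and at an unadjusted p under 0.05, 29 were higher and 0 lower in limma. After adjustment 6 were higher, beside 2.23% of all features: the nucleotide synthesis gene rrm1 (1837, 1621 and 1689 against 1099, 615 and 1346; log2 difference 0.81, SE 0.20, adjusted p = 0.0166), the kinase genes cdk2 (0.54) and plk1 (0.49), the spindle motor gene kif11 (0.46), the checkpoint gene mad2l1 (0.52) and the replication gene orc6 (0.52). Of these, rrm1 and cdk2 were lost without replicate 1 of the miR-206 rest or replicate 2 of the miR-124 rest (adjusted p from 0.00212 to 0.0614 with 1 array left out for rrm1 and adjusted p from 0.0303 to 0.141 with 1 array left out for cdk2), kif11 without replicate 1 of the miR-124 rest (adjusted p from 0.0136 to 0.0522 with 1 array left out) and mad2l1 without replicate 1 of the miR-206 rest or replicate 1 or 3 of the miR-124 rest (adjusted p from 0.0106 to 0.118 with 1 array left out). The number was 3 without replicate 2 and 12 without replicate 3 of the miR-124 rest, and 16 with arrays centred on their medians. In sorted cells 59 of the 64 were higher in CNS than in muscle. Among genes that all cells use, limma called 0 of 73 ribosomal protein genes (median 0.09) and 0 of 69 respiratory chain genes (median 0.01), with 72 and 68 intervals within 2-fold. At an unadjusted p under 0.05, 5 ribosomal genes were higher and 1 lower, and 4 respiratory genes higher and 1 lower. At that p, 877 of all 9548 features were higher and 1084 lower.

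**Figure D5:**
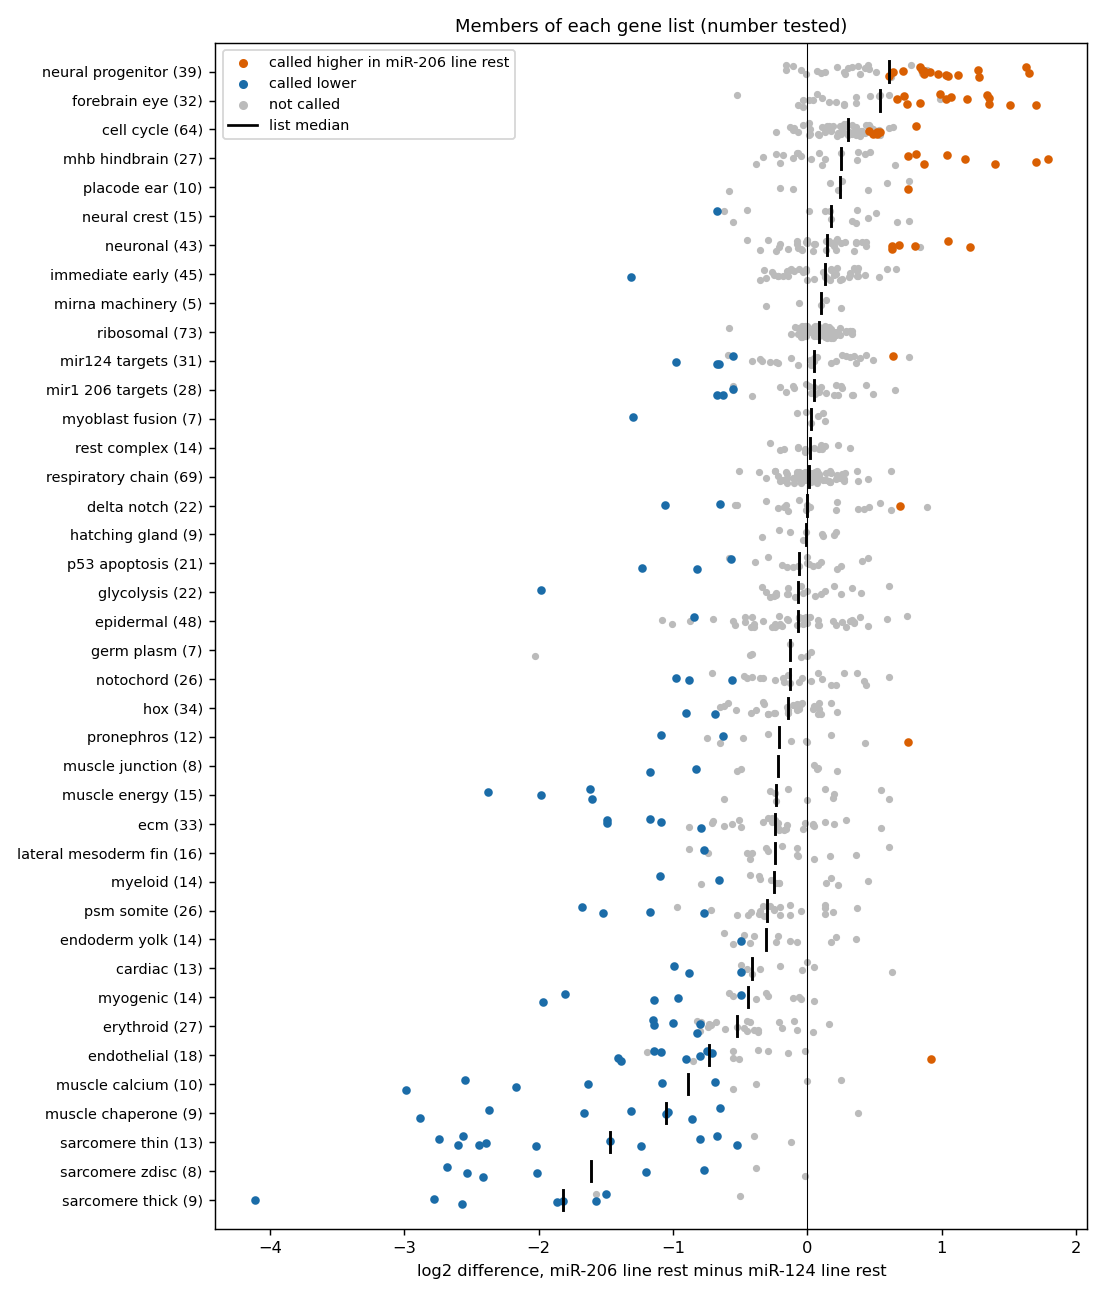
Log2 difference of the miR-206 rest minus the miR-124 rest for every tested member of 40 gene lists, with members called higher in orange, called lower in blue, not called in grey and a black bar at each list's median. The sarcomere lists have medians from -1.82 to -1.47, the neural progenitor list 0.61, and the hatching gland, ribosomal and respiratory chain lists hold no called member.

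The remaining lists are read against the 3.9% of all features that were lower. Of 22 glycolysis genes 1 fell, the muscle gene aldoab, and of 45 immediate early and stress genes 1, hsp90aa1.2 (medians -0.07 and 0.13). Of 21 genes of the p53 pathway and cell death 3 were lower, plk2b (50.5, 64.1 and 97.7 against 246, 129 and 189; log2 difference -1.23, SE 0.25, adjusted p = 0.00477), mdm2 (-0.57) and foxo3b (-0.82), and 1 was without replicate 1 of the miR-206 rest or replicate 3 of the miR-124 rest (adjusted p from 0.0278 to 0.135 with 1 array left out for mdm2 and adjusted p from 0.00818 to 0.0889 with 1 array left out for foxo3b). Of 28 genes known as mammalian targets of the related miR-1 and miR-206, 3 were lower (median 0.05): the mitochondrial chaperonin gene hspd1 (-0.63), snai2 and hdac9b (-0.55), and 1 was without replicate 1 of the miR-124 rest (adjusted p from 0.0177 to 0.107 with 1 array left out for hdac9b). Of 31 reported mammalian targets of miR-124, 4 were lower, cav1, snai2, rhogb (-0.55) and cebpa, and hmgb2a (0.64) was higher (median 0.05). Without replicate 1 of the miR-206 rest 1 of the 4 was lower, and 2 were without its replicate 2 or any 1 array of the miR-124 rest (adjusted p from 0.0147 to 0.0629 with 1 array left out for rhogb). The hmgb2a call was lost without replicate 1 or 3 of the miR-206 rest or replicate 2 of the miR-124 rest or replicate 2 or 3 of sorted muscle or replicate 2 of sorted CNS cells (adjusted p from 0.0325 to 0.178 with 1 array left out).

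The repressor REST keeps neuronal genes off outside neurons; its own gene was not among those tested. Its partners and other chromatin subunits gave 0 limma calls among 14 genes, and 0 at an unadjusted p under 0.05, and all 14 intervals lay within 2-fold. The subunit gene actl6a (0.32) passed without replicate 3 of the miR-124 rest (adjusted p from 0.0401 to 0.863 with 1 array left out). The corepressor gene rcor1 read 205, 213 and 271 in the miR-206 rest and 172, 184 and 224 in the miR-124 rest (0.23, -0.07 to 0.53), and the chromatin gene smarca4a read 1223, 1128 and 1122 against 1025, 1352 and 849 (0.13, -0.15 to 0.41). Of 5 measured genes of microRNA processing and action limma called 0, and 0 at an unadjusted p under 0.05. Dicer itself, dicer1, read 119, 184 and 145 against 187, 291 and 116 (-0.31, adjusted p = 0.548), drosha 55.5, 67.4 and 48.3 against 59.1, 54 and 38.2 (0.14) and dgcr8 951, 1263 and 1276 against 920.2, 1340.1 and 737 (0.25). The groups overlapped in all 5.

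The last set holds genes that neither sorted tissue expressed brightly. Of the tested features 305, 214 of them named, were dim in both sorted populations, below the 40th percentile of their array on all 6. Of these, 21 (6.89%) were called between the rests, 2 higher and 19 lower in the miR-206 rest, beside 6.13% of all features, and the median was -0.19. Since some of the 305 passed the filter on low values only through the rests, the count was also taken over the 203 that passed on mutant arrays alone, where 15 (7.39%) were called, 2 higher and 13 lower. The bone and macrophage protease gene ctsk read 43.4, 46.6 and 87.3 in the miR-206 rest and 136, 125 and 145 in the miR-124 rest (log2 difference -1.06, SE 0.18, adjusted p = 0.000973), with groups apart. The immune factor gene irf5 read 30.8, 36.8 and 28.4 against 67.2, 50.4 and 57.1 (log2 difference -0.63, SE 0.15, adjusted p = 0.0148), a call lost without replicate 1 of the miR-124 rest (adjusted p from 0.0133 to 0.0623 with 1 array left out). Others with calls were krt94, spi1b, myh7, tnnt2a, cdh17, gata6, the stress gene ndrg1a (-0.54, adjusted p from 0.0119 to 0.161 with 1 array left out) and gchfr (-0.54, adjusted p from 0.0224 to 0.15 with 1 array left out). Of these named genes, ctsk and krt94 passed in all 12 fits. The 21 calls became 7 without replicate 1 of the miR-206 rest and 11 without replicate 3 of the miR-124 rest.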

How the data were processed

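The authors sorted GFP-positive and GFP-negative cells and hybridised biotin-labelled cRNA to Affymetrix zebrafish arrays. The deposited table holds 1 intensity per probe set and array, made with MAS5 per the submitters' processing notes, so background, mismatch correction and scaling were theirs; the trimmed mean of every array was 150.0. Arrays carry no read depth, so their number limits the precision. Here log2(intensity + 16) was fitted with limma 3.58.1 (R 4.3.3): 6 group means over all 18 arrays, an intensity trend, and two-sided tests adjusted by Benjamini-Hochberg over 9548 features. Probe sets were kept if they exceeded their array's 40th percentile on at least 3 arrays, and the brightest stood for a gene. Of 15617 probe sets, 115 controls were left out, 10795 had 1 symbol, 135 several and 4572 none; 10711 matched RefSeq. The fit was checked on simulated data.

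The members and the 40 gene lists were chosen with earlier results of these data known; of 1723 listed entries 950 were tested. Named were the 15 largest rises and falls with groups apart, the defining markers, up to 4 members per list with the smallest adjusted p (3 in the other direction), the 10 largest of the genes dim in both sorted tissues and of those called toward the same line, and the REST partner and microRNA machinery lists; 156 genes resulted. Myl10, neb, tmod4, desma, zic2b, zic5, zic6, sox21a, sox21b, hbbe2, col1a1a, plk1, orc6, stmn4, olig2, hspa8, dnajb1a, dnajb1b, hspb1 and hspb8 were added after their values were seen. Nothing in the sources used here says whether replicates came from separate clutches, so p-values measure the spread between these samples. With 3 arrays a group, the smallest exact two-sided permutation p is 0.1. Pseudocount, filter, scaling, samples in the fit, replicate block, array weights and each array were varied; leaving out sorted wild-type arrays, and settings for the mutant comparison, were chosen after seeing the data.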

Additional observations from a re-analysis of the deposited data

How the results depend on the processing

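No called named gene changed direction under any setting (13 uncalled ones changed sign when 1 array was left out), and of the 113 called, 72 kept the call with each of the 12 wild-type arrays left out. With the 6 compared arrays alone, 198 features were called (54 higher, 144 lower), 26 neural-list genes rose and 2 features dim in both sorted tissues passed. Array weights gave 371 calls (220 lower), 41 toward the same line and 9 of the dim features, and 2411 in the mutant comparison. Median centring gave 344 higher. The dim count of 21 was 4 and 34 at pseudocounts of 1 and 64, 54 without a filter, 8 at the 60th percentile filter, and 11 and 46 when dim meant the 30th and 50th percentile. A pseudocount of 64 shrank 44 of the named differences by over 1.5 times and one of 1 enlarged 13. Arrays of the 2 rests with the same replicate number were not taken as pairs in the main fit. Their deviations correlated at 0.167, 0.007 and 0.281, and in 4 of 6 the closest array bore the same number. These values do not settle whether such arrays are pairs. With a replicate block on the 6 arrays, 245 features were called (64 higher, 181 lower), beside 198 without it, and 6 of the dim ones. Leaving out 1 wild-type array gave 359 to 636 calls, 152 to 232 higher, 207 to 424 lower, 285 to 412 opposite to the sorted cells, 39 to 80 toward the same line, 7 to 31 dim, 44 to 50 muscle-list falls, 34 to 43 neural-list rises, 3649 to 4507 sorted and 1425 to 1672 mutant calls. These fits kept 304 to 575 of the 585 calls. The cause of these shifts was not tested. Intensities near the background limit dim genes such as myl1.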
